A study of Sus scrofa with 9 samples.

Results

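The genes described here are 9 interferon-stimulated genes of the pig liver: *ISG15*, *MX1*, *MX2*, *IFIT1*, *IFIT3*, *RSAD2*, *OAS2*, *IRF7* and *DDX58*. They were taken by gene symbol from a table of 25918 genes. Each symbol stood on 1 row, and all 9 were among the 12584 genes with a mean level of at least 0.5 FPKM (fragments scaled by transcript length and by library size), to which the tests were restricted. RNA was sequenced from the liver of 9 Wujin pigs, a Chinese breed, with 3 pigs in each of 3 diet groups. Iron was added to the basic diet as iron glycinate, at 0 mg/kg for the low-iron group, 100 mg/kg for the control group and 200 mg/kg for the high-iron group. By the study's calculation the basic diet itself held iron, so the low-iron diet was not free of iron. The pigs were 35 days old at the start, were kept singly, and were fed for 5 days before the trial and for the 30 days of the trial itself. The sequenced pigs were a random choice from each group, males and females were both in the study, and the sex of the 9 pigs was not used here. Pigs are named below by their group and the number in their label.

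The label of the tissue was checked with 7 hepatocyte genes (*ALB*, *APOA1*, *TTR*, *SERPINA1*, *CPS1*, *ASGR1* and *TAT*), all of which were above 0 in every group, with summed levels from 52276 to 80239 FPKM. The libraries held 16235 to 17817 genes above 0, and no library was a copy of another (Spearman correlation of library pairs over all genes, 0.94 to 0.957). Without counts in the table the depth of each value is unknown, and precision was judged from the spread between the 3 pigs of a group.

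Interferons are cytokines that cells release when they sense foreign nucleic acid. Type I and type III interferons bind receptors that act through the kinases JAK1 and TYK2 and the transcription factor complex ISGF3. This complex binds the interferon-stimulated response element (ISRE) beside its target genes. The targets are kept at a low level in most tissues without infection and include proteins that bind viral RNA or capsids, enzymes that make antiviral nucleotides, and the sensors and transcription factors of the response itself. In the liver, hepatocytes, Kupffer cells and endothelial cells can all respond to interferon.

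A feature of sequence that the choice by symbol did not use was present for some of the 9 genes. The letters GAAANNGAA, the core of an ISRE, were searched on both strands from 250 bases before to 50 bases after each annotated start in the RefSeq sequence of Sscrofa11.1. They were present for 5 of the 9 genes (*ISG15*, *IFIT1*, *IFIT3*, *RSAD2* and *OAS2*), and for 8.22% of 20664 promoters of the same length. *ISG15* held 4 matches, *IFIT3* held 3, *OAS2* held 2, of which 1 lay after the start, and *IFIT1* and *RSAD2* held 1 each. A stricter form, with 1 more A at its end, was also present for 5 of 9 genes and for 3.72% of all promoters. The letters TTCNNNGAA, the core of the gamma-activated element (GAS) of interferon gamma responses, were present for 0 of 9 genes and for 7.36% of promoters. The stretches that hold the matches are shown because their letters fit the core of this element. Whether interferon acts through them was not tested. The stretches are written 5′ to 3′ on the strand of the gene, with the matches in capitals (a match on the opposite strand reads as TTC, 2 free letters and TTTC). Adjoining matches in *ISG15* overlap and make 1 run of capitals.
ISG15: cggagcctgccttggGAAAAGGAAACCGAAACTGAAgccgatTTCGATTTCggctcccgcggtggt
IFIT1: actgcctactttaatTTCACTTTC
IFIT3: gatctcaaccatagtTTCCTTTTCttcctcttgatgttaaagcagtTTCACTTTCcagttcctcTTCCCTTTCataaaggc
RSAD2: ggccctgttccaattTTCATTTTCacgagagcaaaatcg
OAS2: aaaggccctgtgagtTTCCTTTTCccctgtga
The positions in Sscrofa11.1 are chr6:63363052-63363117 on the plus strand for *ISG15*, chr14:101237380-101237403 on the plus strand for *IFIT1*, chr14:101214649-101214729 on the plus strand for *IFIT3*, chr3:128897915-128897953 on the minus strand for *RSAD2* and chr14:38847698-38847729 on the minus strand for *OAS2*. Counted from the annotated start, they lie between bases -149 and -84 (*ISG15*), -23 and 1 (*IFIT1*), -81 and -1 (*IFIT3*), -144 and -106 (*RSAD2*) and -32 and -1 (*OAS2*). A match is a description of letters, and no binding was measured. No match was found in these windows for *MX1*, *MX2*, *IRF7* and *DDX58*. The search allowed only 2 free letters between the parts of the motif. Other spacings were not searched, so a missing match does not mean that the element is missing.

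Differences between diets were fitted with limma on log2(FPKM + 0.1), so a fold change on this scale slightly understates the change of low genes. A gene was called, by the thresholds of the study, when it differed 2-fold or more with an unadjusted p under 0.05. Few differences passed a correction for the number of genes: after Benjamini-Hochberg adjustment over all 12584 genes, 0, 1 and 0 genes had an adjusted p under 0.05 in the comparisons of low-iron against control, high-iron against control and high-iron against low-iron, where 463, 704 and 900 genes had an unadjusted p under 0.05. None of those adjusted calls was a member. An exact permutation test of 3 pigs against 3 cannot give a p below 0.1.

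In the high-iron group the mean level of all 9 genes was above that of the control group, though the fitted difference of *DDX58* turned negative under other scalings between libraries. The increase was largest for *ISG15* (log2 fold change 1.17), the member called in this comparison, and smallest for *DDX58* (0.05). The median difference of the 9 genes was 0.77 on the log2 scale, against 0.10 for all tested genes. In a piece of liver, fewer cells of a type and less RNA per cell cannot be told apart, and this holds for every level given here.

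**Figure D1:**
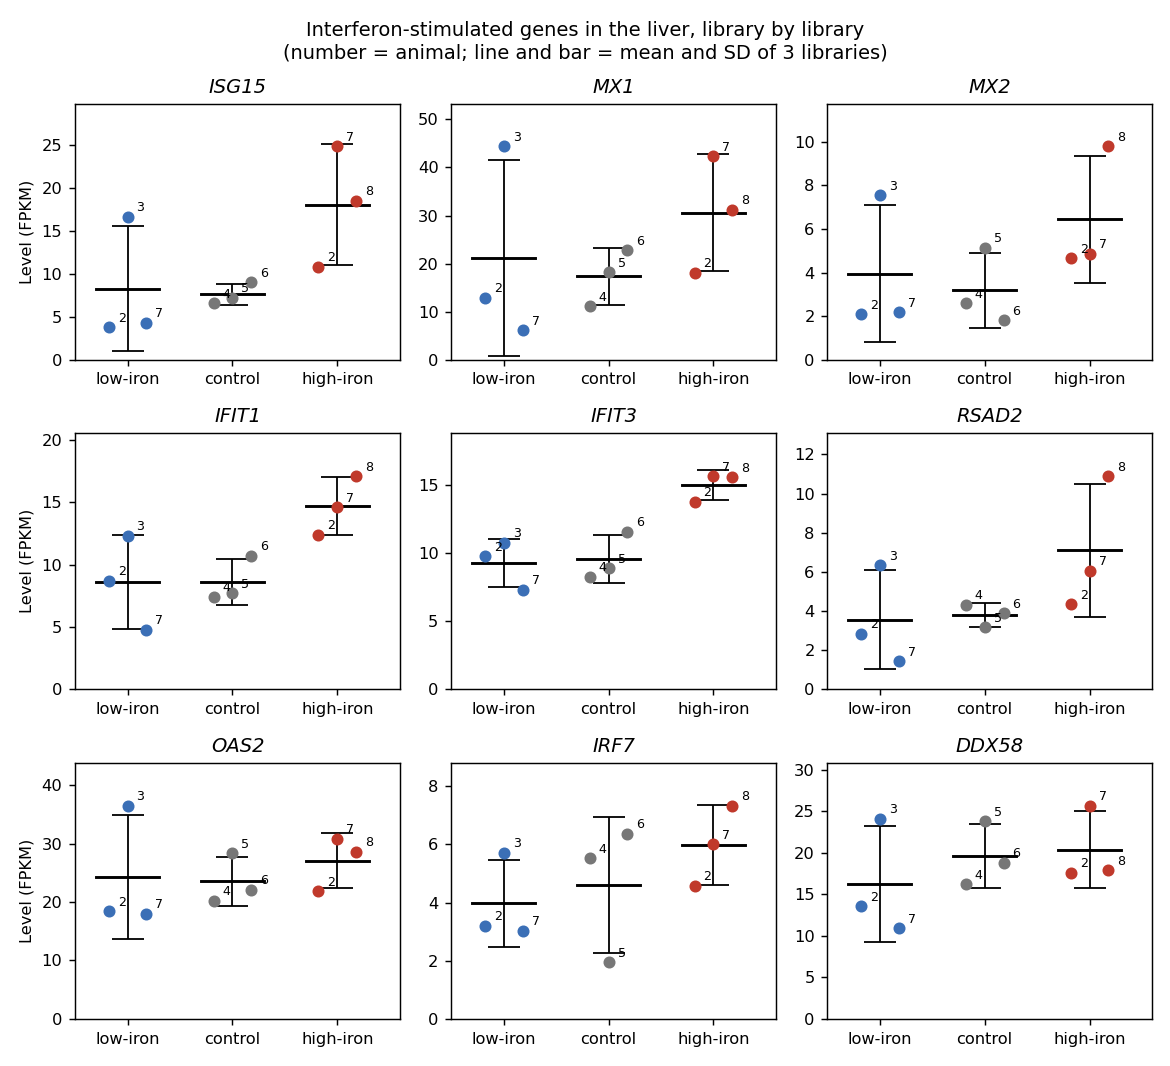
Level of each gene in FPKM (vertical axis, from 0) in the 9 livers by diet group, each point a pig with its number, with the mean and SD of 3 pigs as line and bar. The high-iron pigs stand above the control pigs without overlap for ISG15, IFIT1, IFIT3 and RSAD2, and low-iron pig 3 stands well above low-iron pigs 2 and 7 for most genes.

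*ISG15* encodes a ubiquitin-like protein that is attached to other proteins during the interferon response. Its level in the high-iron pigs 2, 7 and 8 was 10.8, 24.8 and 18.5 FPKM, and in the control pigs 4, 5 and 6 it was 6.59, 7.19 and 9.01 FPKM. The groups did not overlap. The mean was 18.04 ± 7.03 FPKM in the high-iron group and 7.6 ± 1.26 FPKM in the control group (SD, n = 3 each). The fitted change was 2.25-fold (log2 1.17, SE 0.50, limma p = 0.0388, adjusted p = 0.892, exact permutation p = 0.1), and it passed the call. Of all tested genes 1.27% were called higher in this comparison, and of the members it was 1 of 9. This call was lost when any of control pigs 4, 5 and 6 or high-iron pigs 7 and 8 was left out, with p from 0.0504 to 0.131 and a log2 change from 0.90 to 1.30. It was also lost with median-of-ratios scaling (log2 1.06, p of 0.0507) and with no filter on low genes (p of 0.0528). The low-iron pigs 2, 3 and 7 had 3.81, 16.6 and 4.3 FPKM, so that pig 3 lay within the high-iron range and the others below every control. Against the low-iron group the change was 2.6-fold (log2 1.38, SE 0.50, limma p = 0.0185, adjusted p = 0.64, exact permutation p = 0.2), which was also called although the groups overlapped.

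*ISG15* lies at chr6:63363201-63364211 on the plus strand and has 2 exons. On the opposite strand *LOC110261384* shares 69 of its 609 exonic bases, or 11.3%. Whether the counting used strand is not given in the sources used here, so reads from this stretch cannot be told apart.

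*IFIT1* and *IFIT3* encode proteins with tetratricopeptide repeats, and IFIT1 binds viral RNA by its 5′ end. *IFIT3* had 13.8, 15.7 and 15.6 FPKM in high-iron pigs 2, 7 and 8, against 8.27, 8.93 and 11.6 FPKM in control pigs 4, 5 and 6 and 9.79, 10.8 and 7.34 FPKM in low-iron pigs 2, 3 and 7. The high-iron pigs were above all 6 other pigs. Its mean was 15.04 ± 1.04 FPKM in the high-iron group, 9.59 ± 1.74 FPKM in the control group and 9.31 ± 1.79 FPKM in the low-iron group (SD, n = 3 each). The fitted difference was 1.58-fold against the control group (log2 0.66, SE 0.20, limma p = 0.00845, adjusted p = 0.885) and 1.63-fold against the low-iron group (log2 0.70, SE 0.20, limma p = 0.00574, adjusted p = 0.612), with an exact permutation p = 0.1 in each. Both are below a fold change of 2, so neither was called. Over the 3 groups together the exact permutation p of the F statistic was 0.0357, with 1680 assignments and a smallest possible p of 0.00357. This p was the lowest of the 9 genes and is not corrected for their number. The limma F test of the 3 groups gave *IFIT3* an adjusted p of 0.896. *IFIT3* also had the smallest spread within groups (SD 0.23 on the log2 scale, percentile 21.6 among tested genes).

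*IFIT1* had 12.4, 14.6 and 17.1 FPKM in high-iron pigs 2, 7 and 8, and 7.43, 7.69 and 10.7 FPKM in control pigs 4, 5 and 6. Low-iron pigs 2, 3 and 7 had 8.69, 12.3 and 4.78 FPKM. Here too the high-iron pigs were above all others, but high-iron pig 2 exceeded low-iron pig 3 by little. The fitted difference was 1.71-fold against the control group (log2 0.77, SE 0.31, limma p = 0.0317, adjusted p = 0.892) and 1.81-fold against the low-iron group (log2 0.86, SE 0.31, limma p = 0.0197, adjusted p = 0.64), again with an exact permutation p = 0.1 in each. Neither was called, and the exact permutation p over the 3 groups was 0.139. The genes are neighbours on the plus strand of chromosome 14, *IFIT3* at chr14:101214730-101225169 and *IFIT1* at chr14:101237403-101249486. Both overlap the span of *LIPA* on the other strand, with which they share 0 exonic bases. They are paralogs, and how the authors' counting divided reads between related copies is not given in the sources used here, so their separate levels are uncertain to that extent. The same holds for *MX1* and *MX2*.

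*RSAD2* encodes viperin, an iron-sulfur enzyme that makes a chain-terminating nucleotide from CTP. High-iron pigs 2, 7 and 8 had 4.34, 6.06 and 10.9 FPKM, control pigs 4, 5 and 6 had 4.33, 3.16 and 3.89 FPKM, and low-iron pigs 2, 3 and 7 had 2.85, 6.35 and 1.44 FPKM. The high-iron pigs stood above the control pigs without overlap, though high-iron pig 2 and control pig 4 were nearly level, and low-iron pig 3 stood above high-iron pigs 2 and 7. Against the low-iron group *RSAD2* was 2.17-fold higher (log2 1.12, SE 0.47, limma p = 0.0384, adjusted p = 0.686, exact permutation p = 0.3) and was called. Against the control group the difference was 1.73-fold (log2 0.79, SE 0.47, limma p = 0.122, adjusted p = 0.932, exact permutation p = 0.1) and was not called. The gene lies at chr3:128880853-128897809 on the minus strand, next to *CMPK2*, another interferon-stimulated gene that supplies the same reaction with CTP.

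*ISG15* and *RSAD2* were thus the members called higher in the high-iron group than in the low-iron group, 2 of 9, where 1.01% of all tested genes were called higher. The calls of this comparison depended on single pigs. Without low-iron pig 3 the number called was 5 (*ISG15*, *MX1*, *MX2*, *IFIT1* and *RSAD2*). It was 0 without low-iron pig 2, low-iron pig 7 or high-iron pig 7, and only *ISG15* was called without control pig 6 or high-iron pig 8. Against the control group, *MX2* was called beside *ISG15* without low-iron pig 3, and in place of it without control pig 5.

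The MX proteins are dynamin-like GTPases that block the entry or replication of viruses. *MX1* had the widest spread within groups of the 9 genes (SD 0.95 on the log2 scale, percentile 94.9). Its level was 18.1, 42.4 and 31.2 FPKM in high-iron pigs 2, 7 and 8, 11.1, 18.2 and 22.8 FPKM in control pigs 4, 5 and 6, and 12.9, 44.4 and 6.2 FPKM in low-iron pigs 2, 3 and 7. The highest and the lowest value of the series were thus both in the low-iron group. The fitted difference was 1.73-fold against the control group (log2 0.79, SE 0.60, adjusted p = 0.943) and 1.88-fold against the low-iron group (log2 0.91, SE 0.60, adjusted p = 0.807), neither of them called. The latter was 0.27 without low-iron pig 7 and 1.68 without low-iron pig 3. *MX2* had 4.67, 4.86 and 9.79 FPKM in high-iron pigs 2, 7 and 8, 2.6, 5.13 and 1.8 FPKM in control pigs 4, 5 and 6, and 2.1, 7.56 and 2.18 FPKM in low-iron pigs 2, 3 and 7. High-iron pig 8 was highest, and control pig 5 lay within the range of the high-iron group. Its difference against the control group was 2.06-fold (log2 1.04, SE 0.52, limma p = 0.0728, exact permutation p = 0.3), which missed the call on p alone, and that against the low-iron group was 1.83-fold (log2 0.87, SE 0.52, adjusted p = 0.782). *MX2* lies at chr13:204798633-204821612 and *MX1* at chr13:204843049-204868927, both on the plus strand, with 8 and 17 exons.

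*OAS2* makes 2′-5′-linked oligoadenylates from ATP when it binds double-stranded RNA, and these activate RNase L. It was the most abundant member, at 24.97 FPKM over the 9 pigs. High-iron pigs 2, 7 and 8 had 21.8, 30.8 and 28.6 FPKM, control pigs 4, 5 and 6 had 20.2, 28.3 and 22.1 FPKM, and low-iron pigs 2, 3 and 7 had 18.4, 36.5 and 17.97 FPKM. The 3 groups overlapped, with low-iron pig 3 highest. The fitted difference was 1.15-fold against the control group (log2 0.20, SE 0.28, adjusted p = 0.994) and 1.17-fold against the low-iron group (log2 0.22, SE 0.28, adjusted p = 0.917). The gene lies at chr14:38827667-38847697 on the minus strand beside *OAS1*.

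The remaining members act upstream in the response. *IRF7* is the transcription factor that drives interferon alpha genes, and *DDX58* encodes RIG-I, a cytoplasmic sensor of viral RNA with a 5′ triphosphate. *IRF7* had 4.58, 6.0 and 7.34 FPKM in high-iron pigs 2, 7 and 8, 5.52, 1.96 and 6.37 FPKM in control pigs 4, 5 and 6, and 3.2, 5.71 and 3.03 FPKM in low-iron pigs 2, 3 and 7. Control pig 5 had the lowest value of the series, and without it the difference from the control group to the high-iron group was -0.02 on the log2 scale in place of 0.50 (SE 0.42, adjusted p = 0.956). Against the low-iron group the difference was 1.52-fold (log2 0.61, SE 0.42, adjusted p = 0.814). *DDX58* had 17.6, 25.7 and 17.9 FPKM in high-iron pigs 2, 7 and 8, 16.2, 23.8 and 18.8 FPKM in control pigs 4, 5 and 6, and 13.6, 24.1 and 10.9 FPKM in low-iron pigs 2, 3 and 7. Each group had 1 pig well above its other 2. The difference was 1.04-fold against the control group (log2 0.05, SE 0.29, adjusted p = 0.994), and became -0.06 with median-of-ratios scaling and -0.01 with quantile normalization. Against the low-iron group it was 1.31-fold (log2 0.39, SE 0.29, adjusted p = 0.829). *IRF7* lies at chr2:372235-375572 on the minus strand. *DDX58*, at chr10:33891720-33976151 on the plus strand, shares 424 of its 9403 exonic bases (4.51%) with *ACO1*, the gene of iron regulatory protein 1, on the other strand, and reads there cannot be assigned without strand.

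**Figure D2:**
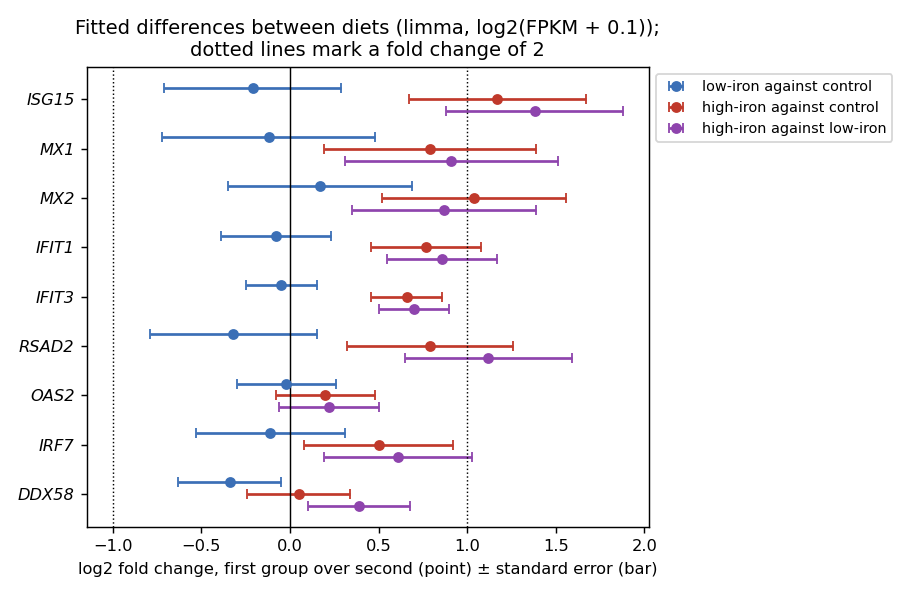
Fitted log2 fold change (horizontal axis) of each gene between diets, with its standard error as bar; dotted lines mark a fold change of 2 in either direction. Both comparisons of the high-iron group lie to the right of 0 for all 9 genes (DDX58 against control turns negative under other scalings), and low-iron against control lies between -0.34 and 0.17.

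Counted over the list, 3 of 9 genes had an unadjusted p under 0.05 in high-iron against control (*ISG15*, *IFIT1* and *IFIT3*), all of them higher, where 4.78% of all tested genes did so with a higher level. The count was 1 with median-of-ratios scaling, 2 with quantile normalization and 1 to 4 with a pig left out: 1 without control pig 4, high-iron pig 7 or high-iron pig 8, 2 without control pig 5 or 6, and 4 without low-iron pig 3. In high-iron against low-iron it was 4 of 9 (*ISG15*, *IFIT1*, *IFIT3* and *RSAD2*), where 4.03% of all tested genes did so. That count was 1 without low-iron pig 7, 2 without low-iron pig 2, high-iron pig 7 or high-iron pig 8, 3 without control pig 6 and 8 without low-iron pig 3. Every high-iron pig was above every control pig for 4 of 9 genes, against 9.14% of all tested genes. Every high-iron pig was above every low-iron pig for 2 of 9 genes (*IFIT1* and *IFIT3*), against 8.11% of all tested genes. The 9 genes moved together from pig to pig, so these counts are not of independent genes, and both comparisons share the high-iron pigs.

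The background of calls leaned upward. In high-iron against control 160 genes were called higher and 37 lower, but 98 and 52 with median-of-ratios scaling and 83 and 68 with quantile normalization. In high-iron against low-iron the calls were 127 higher and 67 lower, and 110 and 75 or 85 and 99 with those scalings. Median-of-ratios scaling moved the median of all genes in high-iron against control from 0.10 to -0.01 and that of the 9 genes from 0.77 to 0.66, by construction a nearly equal shift of every gene.

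Between the low-iron and control groups no member was called. The fitted log2 differences ran from -0.34 (*DDX58*) to 0.17 (*MX2*), with a median of -0.11, against 0.08 for all tested genes. All adjusted p were 0.9998 (limma), and the unadjusted p ran from 0.278 to 0.936. In this comparison 0.596% of all tested genes were called higher and 0.286% lower, 75 and 36 genes, or 53 and 48 with median-of-ratios scaling and 51 and 46 with quantile normalization. The signs of these fitted differences rest on single pigs. On the log2 scale 8 of 9 genes were lower in the low-iron group with all pigs. It was 9 of 9 without low-iron pig 3 and 1 of 9 without low-iron pig 7. The scale also mattered. In mean FPKM the low-iron group was above the control group for *ISG15* (8.23 against 7.6), *MX1* (21.2 against 17.4), *MX2* (3.95 against 3.17) and *OAS2* (24.3 against 23.6). It was below for *IFIT1*, *IFIT3*, *RSAD2*, *IRF7* and *DDX58*.

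The low-iron group was not uniform. Pig 3 had the highest level of the 3 low-iron pigs for 9 of 9 genes and was above every control pig for 7 of 9. The ratio of its level to the mean of pigs 2 and 7 ran from 1.26 for *IFIT3* to 4.66 for *MX1*, with 4.09 for *ISG15* and 3.53 for *MX2*. The median ratio of the 9 genes was 2.01, where the median over all tested genes was 1.02, and 5.25% of tested genes had a ratio at or above 2.01. Pig 7 of the same group had the lowest level of all 9 pigs for 6 of the 9 genes. Each high-iron pig was above low-iron pigs 2 and 7 for all 9 genes, which is given as a description, since these pigs were singled out by their values.

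**Figure D3:**
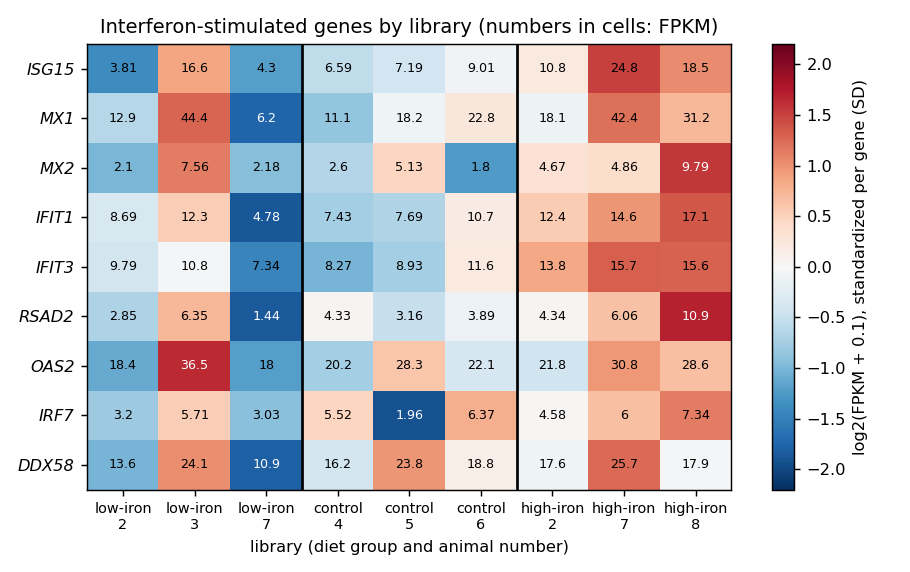
Levels in FPKM (numbers in the cells) of the 9 genes (rows) in the 9 pigs (columns), coloured by the log2 value standardized for each gene over the 9 pigs. Columns of low-iron pigs 2 and 7 are blue for every gene, and those of low-iron pig 3 and high-iron pigs 7 and 8 are red or near white.

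Averaged over the 9 genes after each was standardized on the log2 scale, the pigs ran from -1.44 SD (low-iron pig 7) and -0.82 SD (low-iron pig 2), through -0.50, -0.25 and -0.03 SD in control pigs 4, 5 and 6 and 0.15 SD in high-iron pig 2, to 0.86 SD (low-iron pig 3), 0.99 SD (high-iron pig 7) and 1.05 SD (high-iron pig 8). Low-iron pig 3 thus stood with high-iron pigs 7 and 8, and high-iron pig 2 stood next to the control pigs. High-iron pigs 7 and 8 were among the 3 highest for 8 of 9 genes each, and low-iron pig 3 for 6 of 9. The 3 controls lay closest to each other.

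The shared movement can be given pair by pair. Over the 9 libraries, which share their preparation and scaling, Pearson's r of log2 levels was positive in 36 of 36 pairs, with a median of 0.74. It was highest for *IFIT1* with *IFIT3* (0.95) and lowest for *IRF7* with *DDX58* (0.23). After the group means were taken off, it was still positive in 36 of 36 pairs. The median was then 0.66, with a range from 0.02 (*MX2* with *IRF7*) to 0.93 (*IFIT1* with *IFIT3*). These deviations pool the 3 groups, low-iron pig 3 among them, so they do not show shared movement within each diet. Among the controls the order of pigs differed between genes: pig 6 was highest for *ISG15*, pig 5 for *MX2* and *OAS2*, and pig 4 for *RSAD2*. *ISG15* followed the mean of the other 8 genes most closely (r = 0.95), then *MX1* (0.94), *IFIT1* (0.92) and *RSAD2* (0.91), and *IRF7* least (0.57).

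By level, which FPKM allows between genes because it is set per length, the order was *OAS2* (24.97 FPKM over the 9 pigs), *MX1* (23.04), *DDX58* (18.7), *IFIT3* (11.3), *ISG15* (11.3), *IFIT1* (10.6), *IRF7* (4.86), *RSAD2* (4.81) and *MX2* (4.52). *DDX58* was above *IFIT3* and *IFIT1* above *IRF7* in 9 of 9 pigs. The other neighbours in the order did not separate: the higher by mean was above in only 5 of 9 pigs for *OAS2* over *MX1*, *MX1* over *DDX58*, *IRF7* over *RSAD2* and *RSAD2* over *MX2*, in 6 of 9 for *IFIT3* over *ISG15*, and in 3 of 9 for *ISG15* over *IFIT1*. The range over pigs also differed between genes. The highest pig had 7.55 times the level of the lowest for *RSAD2*, 7.17 times for *MX1* and 6.53 times for *ISG15*, but 2.03 times for *OAS2* and 2.14 times for *IFIT3*.

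The genes most like the 9 were found by Pearson's r between each tested gene and the mean of the standardized levels over the 9 libraries. Among 12575 other genes, 22 had an r of at least 0.9. The 10 named genes with the highest r were *RTP4* (0.96), *IFI44* (0.96), *ADAR* (0.96), *PARP9* (0.95), *YWHAZ* (0.95), *ARHGEF6* (0.95), *CORO1C* (0.93), *ZNFX1* (0.93), *TLR8* (0.93) and *MLKL* (0.92). Of these, 5 stand in a list of other interferon-stimulated genes (*RTP4*, *IFI44*, *ADAR*, *PARP9* and *ZNFX1*), and *TLR8*, a sensor of single-stranded RNA, stands in the list of sensors. Spearman's rho of the 10 was 0.85 to 0.95, and r without the pigs farthest from the median (low-iron pig 7 and high-iron pig 8) was 0.85 to 0.95. The choice of the 10 is not firm: 4 were also among the first 10 by Spearman's rho, and 2 to 9 remained when a pig was left out. *RTP4* ran from 3.16 to 13.6 FPKM and *IFI44* from 4.61 to 21.2 FPKM over the 9 pigs, and none of the 10 was called in a comparison of the high-iron group.

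A wider list of interferon-stimulated genes, 46 symbols of which 39 were found and 36 tested, was compared with the 9. Their r with the mean of the 9 genes had a median of 0.82, against 0.10 for all tested genes. It was over 0.8 for 19 of 36, and for 1.42% of all tested genes. Their differences in the comparisons of the high-iron group were smaller: the median was 0.36 on the log2 scale in high-iron against control and 0.51 in high-iron against low-iron, with 33 of 36 higher in each (medians of 0.25 and 0.47 with median-of-ratios scaling), where 65.0% and 53.6% of all tested genes were higher. In low-iron against control it was -0.13, with 25 of 36 lower. None was called in any of the 3 comparisons, where 1.27%, 1.01% and 0.596% of all tested genes were called higher. At an unadjusted p under 0.05 regardless of fold, 3 of 36 were higher in high-iron against control and 7 of 36 in high-iron against low-iron (limma), where 4.78% and 4.03% of all tested genes were.

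The 3 genes of the first comparison were *DTX3L*, *HERC6* and *OAS1*, named here after their values were seen. *DTX3L*, a ubiquitin ligase that works with PARP9, had 3.13, 3.03 and 3.21 FPKM in the high-iron pigs 2, 7 and 8 and 1.58, 1.87 and 1.61 FPKM in control pigs 4, 5 and 6 (log2 0.86, SE 0.30, adjusted p = 0.885). Its low-iron values were 1.67, 2.82 and 1.14 FPKM in pigs 2, 3 and 7, again with pig 3 highest. *OAS1* had 14.2, 11.6 and 26.4 FPKM in high-iron pigs 2, 7 and 8 and 10.4, 10.7 and 10.7 FPKM in the controls (log2 0.62, SE 0.26, adjusted p = 0.892). It differed from its neighbour *OAS2* in that low-iron pig 3 did not stand above its group. Low-iron pigs 2, 3 and 7 had 9.43, 8.56 and 8.61 FPKM of *OAS1*, so pigs 3 and 7 were nearly level. *HERC6* differed by 0.69 (SE 0.28, adjusted p = 0.892).

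The most abundant genes of the wider list followed the 9 less closely than the median gene of that list, with an r of 0.38 for *IFI6*, 0.59 for *IFITM3* and 0.62 for *LGALS3BP*. *IFI6*, which encodes a small membrane protein and had a mean of 239.9 FPKM, stood at 608 FPKM in control pig 4 and at no more than 424 FPKM in the high-iron pigs, with a difference of -0.03 against the control group and 0.87 against the low-iron group (SE 0.57 each). *IFITM3*, which blocks viral fusion in endosomes, had a mean of 175 FPKM and differed by 0.34 (SE 0.40). *LGALS3BP*, a secreted glycoprotein, had a mean of 36.3 FPKM and differed by -0.04 (SE 0.29).

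**Figure D4:**
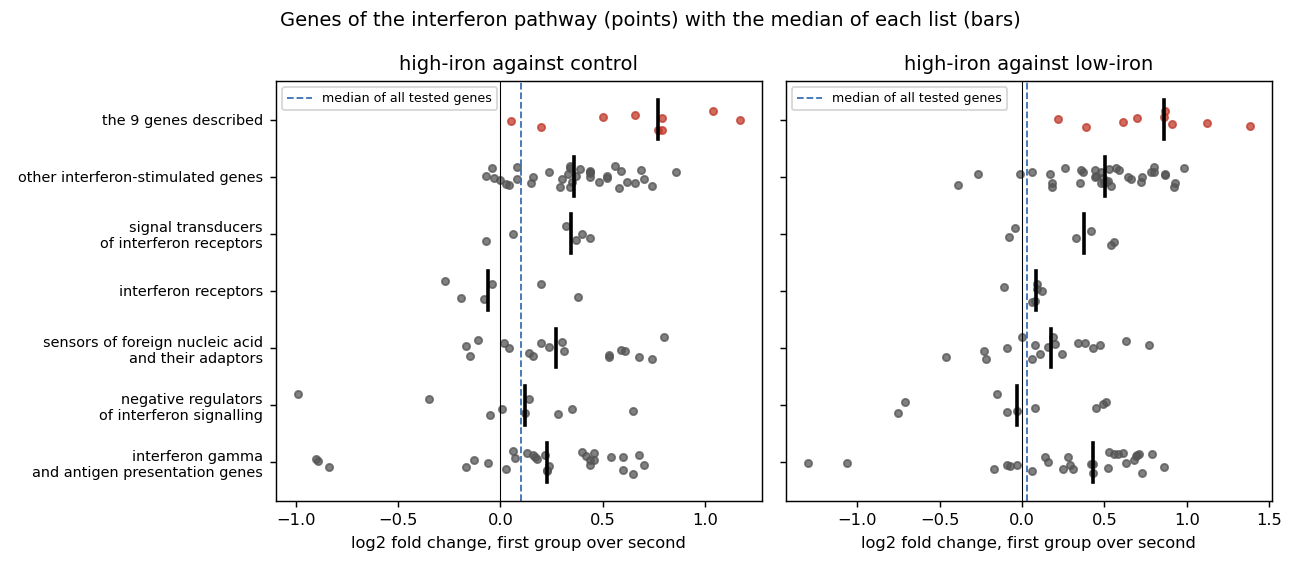
Fitted log2 fold change (horizontal axis) of each tested gene (points) by list (rows), with the median of the list as a black bar and the median of all tested genes as a dashed line. The 9 genes have medians of 0.77 and 0.86, the wider list 0.36 and 0.51, and the receptors -0.06 and 0.09.

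Those interferon ligands that were looked up and found were at the edge of detection. The list held 12 symbols, among them *IL27*, a cytokine of the interleukin 12 family and not an interferon. Of these 8 were found, and 0 of them reached a mean of 0.5 FPKM, so none was tested. *IFNB1* and *IFNK* were listed at 0 in all 9 pigs. *IFNL1*, *IFNL3*, *IFNW1* and *IFND* were not found by symbol, and interferon alpha genes other than *IFNA1* and *IFN-ALPHA-8* were not looked up. Among the interferons found, the highest means were those of *IFNG* (0.315 FPKM) and *IFN-ALPHA-8* (0.218 FPKM), and *IL27* had 0.363 FPKM. *IFNG* was listed at 0 in low-iron pigs 3 and 7 and in high-iron pig 7 and had its highest value, 1.71 FPKM, in high-iron pig 8. At these levels a listed 0 cannot be told from a low level. The part of the ligands in the levels of the 9 genes was not tested.

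The receptors and their kinases were expressed throughout and none was called. All 6 receptor genes were tested, with medians of -0.13, -0.06 and 0.09 in low-iron against control, high-iron against control and high-iron against low-iron. *IFNGR2* (28.8 FPKM), *IFNAR1* (15.8 FPKM) and *IFNGR1* (8.84 FPKM) were the most abundant. *IFNAR1*, a chain of the type I receptor, was highest in low-iron pig 3 (29.5 FPKM) and ran from 10.4 to 19.4 FPKM in the other pigs. Among the 6 signal transducers the medians were -0.02, 0.35 and 0.37. *STAT2* (42.05 FPKM) and *JAK1* (41.5 FPKM) differed from the control group by -0.07 (SE 0.18) and 0.06 (SE 0.23).

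Of 20 sensors of nucleic acid and their adaptors 18 were tested, with medians of 0.13, 0.27 and 0.18 in the same order of comparisons (0.05, 0.16 and 0.14 with median-of-ratios scaling) and 0 calls. The most abundant, *TRIM25* (18.04 FPKM), *TICAM1* (16.2 FPKM) and *IRF3* (15.8 FPKM), differed between the high-iron and control groups by 0.20, -0.15 and -0.17, each less than its standard error of 0.27, 0.25 and 0.23. Of 10 negative regulators 9 were tested, with medians of 0.04, 0.12 and -0.03 and 0 calls. With median-of-ratios scaling these became -0.04, 0.01 and -0.06, and 0.12 became 0.02 without control pig 5. *IRF2* (16.5 FPKM) and *PTPN11* (16.3 FPKM) differed by 0.14 (SE 0.23) and 0.01 (SE 0.19). *SOCS3*, an inhibitor of JAK kinases that is induced by cytokines, had 13.3, 5.26 and 5.78 FPKM in high-iron pigs 2, 7 and 8, with 10, 24.02 and 13.5 FPKM in control pigs 4, 5 and 6. Its difference was -0.99 (SE 0.40, adjusted p = 0.892, with an unadjusted p under 0.05), short of a fold change of 2. It was lowest in high-iron pigs 7 and 8, in which the mean of the 9 genes was highest. Low-iron pigs 2, 3 and 7 had 10.3, 16.98 and 11.3 FPKM, so low-iron pig 3 had high levels of both *SOCS3* and the 9 genes. Over the 9 pigs the r of *SOCS3* with the mean of the 9 genes was -0.35.

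Genes of interferon gamma and antigen presentation were represented by 29 tested rows (*B2M* stands on 2). Their medians were -0.08, 0.23 and 0.43 (-0.16, 0.11 and 0.39 with median-of-ratios scaling), and none was called. In high-iron against low-iron 6 of 29 were higher at an unadjusted p under 0.05, where 4.03% of all tested genes were (limma). The most abundant were *B2M*, the light chain of class I molecules (643 and 329.7 FPKM on its rows), and *SLA-2*, a class I heavy chain (316 FPKM). *SLA-2* ran from 96.9 to 681 FPKM without order by diet. Class I heavy chain genes are near copies of each other and vary between animals, so their separate levels are uncertain.

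Markers of other liver cells moved with the 9 genes to different degrees, and their part in the differences was not tested. Endothelial markers (6 of 6 found: *PECAM1*, *CDH5*, *VWF*, *STAB2*, *LYVE1* and *KDR*) summed to 135 to 146 FPKM in the high-iron group, 98.3 to 102 FPKM in the control group and 94.6 to 140.4 FPKM in the low-iron group. The highest low-iron value was that of pig 3, and the groups of high-iron and control pigs did not overlap. Across the 9 livers r between the log2 of this sum and the mean of the 9 genes was 0.80. Kupffer cell and macrophage markers (10 of 10 found) summed to 1093 to 1326 FPKM in the high-iron group, 829 to 1075 FPKM in the control group and 916 to 1076 FPKM in the low-iron group, with an r of 0.57. The high-iron pigs were above all others. Their highest value was in high-iron pig 2, which had the lowest mean of the 9 genes in its group.

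T and natural killer cell markers (11 symbols on 12 rows) summed to 32.4 to 58.7 FPKM in the high-iron group, 22.4 to 32.5 FPKM in the control group and 22.9 to 28.8 FPKM in the low-iron group, with an r of 0.34. High-iron pig 8 was highest. Low-iron pig 3, with high levels of the 9 genes, had the lowest value of its group. Markers of B and plasma cells (7 of 7 found) ran from 8.2 to 33.4 FPKM and those of dendritic cells (8 of 9 found) from 11.1 to 26.2 FPKM, both highest in high-iron pig 8. Neutrophil markers (6 of 6 found) ran from 3.48 to 12.03 FPKM. The r of these lists with the 9 genes was 0.10, 0.23 and -0.14, and that of the hepatocyte markers was -0.33. Each r is that of a sum of FPKM, so it describes mainly the most abundant markers of a list. *ALB* alone ran from 46231 to 74134 FPKM among hepatocyte markers. *JCHAIN* ran from 4.26 to 22.6 FPKM among B and plasma cell markers, and *CD5L* from 249 to 335 FPKM among Kupffer cell and macrophage markers. No marker was at 0 in all 9 pigs. Some markers were called higher, and none lower. In high-iron against control these were 2 of 11 tested T and natural killer cell markers and 1 of 6 endothelial markers (all genes: 1.27%). In high-iron against low-iron these were 1 of 11 T and natural killer cell markers and 1 of 6 B and plasma cell markers (1.01%). In low-iron against control these were 1 of 11 T and natural killer cell markers and 1 of 4 neutrophil markers (0.596%).

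**Figure D5:**
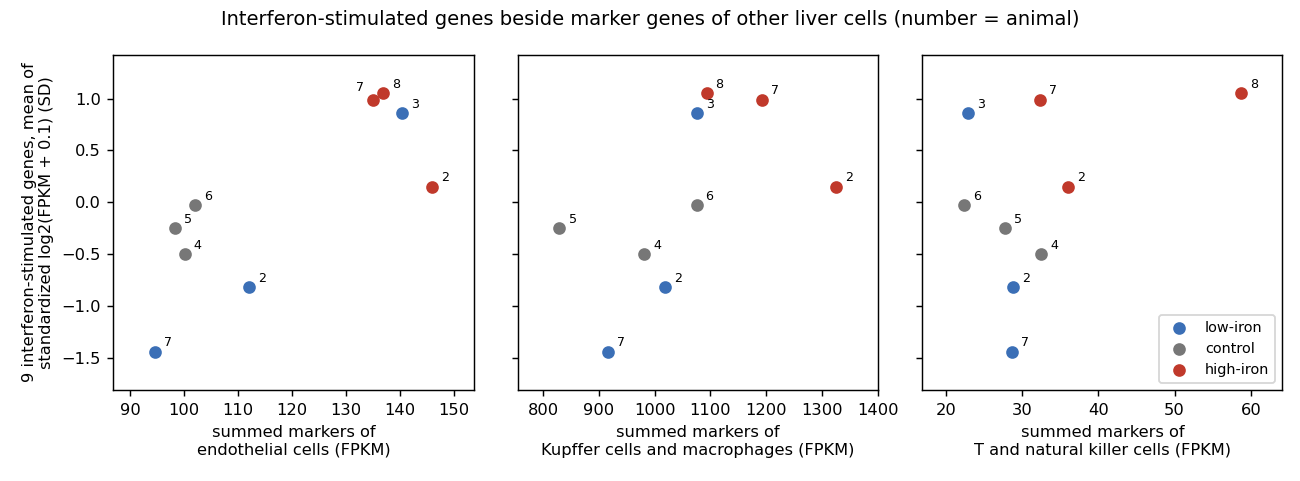
Mean standardized level of the 9 genes (vertical axis, SD) against the summed FPKM of markers of endothelial cells, of Kupffer cells and macrophages, and of T and natural killer cells, each point a pig with its number. Low-iron pig 3 lies with the high-iron pigs on the endothelial axis (140.4 FPKM) and at the low end of the T cell axis (22.9 FPKM).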

How the data were processed

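Liver RNA of 9 pigs was poly-T selected, prepared with a NEBNext Ultra RNA kit and sequenced in pairs. FPKM are the values the authors deposited for each library, after alignment of the cleaned reads by Hisat2 (genome Sscrofa11.1) and transcript assembly by StringTie. The StringTie version, the use of strand and any scaling between libraries are not given in the sources used here. Low values show no steps of whole reads, so no counts were recovered.

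The 20660 numbered rows were read as serial numbers of genes, counted from 0, in NCBI annotation release 106. Read so, each of them is a protein-coding gene, which holds for 15031 when the numbers are shifted by 1 in either direction. Another 5258 rows are new, unnamed genes.

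The fit used limma 3.58.1 in R 4.3.3 on log2(FPKM + 0.1), with the 3 groups in 1 fit (6 residual degrees of freedom), with empirical Bayes moderation and a trend. The study's count test (DESeq2) could not be applied to FPKM. The fit was tested on simulated data. Exact permutation tests (two-sided) and summaries used Python 3.11.15, numpy 2.4.6, scipy 1.17.1 and pandas 2.3.3. Alternatives varied the pseudocount, filter, scaling, weights, samples and pairing.

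The 9 genes, the other lists and the markers were chosen with earlier results of these data known. Genes named are the 9, and in each other list of the interferon pathway those called (there were none) and the 3 most abundant. The 10 most like the 9 are also named, as are any said to be named after their values were seen. A gene that this rule selects among the signal transducers is not reported here.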

Additional observations from a re-analysis of the deposited data

How the results depend on the processing

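The number of the 9 genes called in high-iron against control, 1 as reported, was 0 with no filter and with median-of-ratios scaling, 2 with array quality weights and with only the 2 groups compared, and 0 to 2 with a pig left out. In high-iron against low-iron, 2 as reported, it was 1 with a pseudocount of 1, with no filter and with only the 2 groups compared, 5 with array quality weights, and 0 to 5 with a pig left out. In low-iron against control it was 0 under every alternative run. Numbers of all genes called, 111, 197 and 194 in low-iron against control, high-iron against control and high-iron against low-iron, were 34, 74 and 67 with a pseudocount of 1 and 331, 504 and 458 with no filter. With array quality weights they were 171 in the first and 334 in the last. With a pig left out they ran from 111 to 209, 190 to 296 and 186 to 333. The cause of these moves was not tested.

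The animal numbers 2 and 7 stand in both the low-iron and high-iron groups. Same-numbered pigs did not deviate together over all tested genes (r = 0.0183 and 0.0213), so they were not treated as pairs. With only 2 such numbers, this check cannot exclude that the numbers mark something the pigs share. With the number as a replicate block, a fit with 1 residual degree of freedom, 5 of the 9 genes and 458 genes in all were called in high-iron against low-iron.

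Of the single differences, *DDX58* in high-iron against control was -0.06 with median-of-ratios scaling, -0.01 with quantile normalization and -0.12 to 0.20 with a pig left out, and *IRF7* was -0.02 to 0.81. In low-iron against control, with a pig left out, *ISG15* ran from -0.88 to 0.17, *MX1* from -0.89 to 0.52, *MX2* from -0.42 to 0.58, *IFIT1* from -0.39 to 0.28, *IFIT3* from -0.16 to 0.12, *RSAD2* from -0.86 to 0.18, *OAS2* from -0.36 to 0.15 and *IRF7* from -0.62 to 0.20. In high-iron against low-iron no difference of the 9 genes changed sign under any alternative run. With a pig left out their median there, 0.86 as reported, ran from 0.49 to 1.16, *ISG15* from 1.00 to 2.05, *RSAD2* from 0.62 to 1.65, *MX1* from 0.27 to 1.68 and *OAS2* from 0.05 to 0.56. With 3 pigs a group and no counts, neither the depth behind a value nor differences smaller than these ranges can be resolved.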
